A study of Mus musculus with 2 samples.

Results

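The interleukin-1 (IL-1) family was followed through 10 genes of the mouse abdominal aorta: the cytokine genes *Il1a*, *Il1b*, *Il18*, *Il33* and *Il36g*, the antagonist gene *Il1rn*, the decoy receptor gene *Il1r2* and the receptor genes *Il1r1*, *Il1rap* and *Il1rl1*. They were taken by symbol from the 33696 genes of the single-cell count matrices, and each of the 10 had at least 1 transcript count in both libraries. The Control library came from male C57BL/6J mice infused with saline. The AngII+HS library came from male C57BL/6J mice that received angiotensin II from a subcutaneous osmotic minipump and drank water with sodium and potassium chloride (high salt, HS), a treatment used to produce abdominal aortic aneurysm. The mice were 5 months old. Suprarenal abdominal aortas were taken at day 28, digested with enzymes to single cells and sequenced with a droplet kit that reads the 3′ end of each transcript. Both groups are of 1 strain and 1 sex, and all cells had to survive the digestion.

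The IL-1 family is a group of cytokines of innate immunity. IL-1α and IL-1β bind the receptor IL-1R1, which pairs with the accessory protein encoded by *Il1rap* to signal through MyD88 and NF-κB. The antagonist encoded by *Il1rn* occupies IL-1R1 without signaling, and the receptor encoded by *Il1r2* binds IL-1 but lacks the signaling domain, so that it acts as a decoy. IL-33 is a nuclear cytokine of stromal and endothelial cells that acts on ST2, the product of *Il1rl1*, again with the accessory protein. IL-18 and IL-36γ use receptors of their own within the same family. IL-1β and IL-18 are made as precursors and cut by caspase-1 in inflammasomes, a step that transcript counts do not show.

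Each condition was 1 library, so a difference between conditions cannot be told apart from a difference between the 2 libraries or the mice in them, and no test was possible. The series text gives 5 pooled mice per condition, whereas a sample protocol names 1 control and 2 treated mice. Each library's barcode list is as long as the matrix recorded under the other library, and only the matrices, assigned by the sample they were recorded under, were used. The lists share 67 barcodes, 0.585% of the shorter one. After filters and removal of predicted doublets, 10269 cells and 75294050 unique molecular identifiers (UMIs) remained in Control and 19734 cells and 80581691 UMIs in AngII+HS, with medians of 7274 and 3065.5 UMIs per cell. Clusters were named from marker genes (macrophage-like and so on, with the ending left out in what follows), and 464 Control and 303 AngII+HS cells were left unnamed. VSMCs (vascular smooth muscle cells) were 48.7% of the cells in Control but 3.18% in AngII+HS. Neutrophils were 0.964% and 23.6%, macrophages 4.77% and 22.7%, and fibroblasts 25.4% and 23.9%. Shares of cells can also move with digestion and capture, which was not tested.

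Levels are given in CPM, the UMIs of a gene per 1000000 UMIs of all cells of that type in a library, with exact Poisson 95% intervals. These intervals, and the exact binomial ones of shares of cells, cover counting error only. A member was counted as past 2-fold where it had at least 20 UMIs over both libraries in a cell type and its CPM differed at least 2-fold. A gene with no UMI in 1 library was put at 3 counts there. It was past 2-fold only where this bound differed at least 2-fold, for the members and in the shares of all genes alike. The direction of such a gene was that of its CPM among members and listed genes. In the upward shares of all genes it was that of the bound, which can be downward. Ratios of UMIs between genes are compared only between cell types or libraries.

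The 10 genes lie in few places of the genome (GRCm39, GENCODE annotation). *Il1a* (chr2:129140291-129152098) and *Il1b* (chr2:129206490-129213059) are neighbours on the minus strand of chromosome 2. *Il36g* (chr2:24072000-24083585) and *Il1rn* (chr2:24226865-24241506) lie on the plus strand of the same chromosome. *Il1r2* (chr1:40113239-40164391), *Il1r1* (chr1:40264174-40356417) and *Il1rl1* (chr1:40468730-40504575) follow each other on the plus strand of chromosome 1. *Il1rap* (chr16:26400350-26548880), *Il18* (chr9:50466081-50493633) and *Il33* (chr19:29902483-29938933) each stand alone on the plus strand. Among the genes counted in the matrices, ones on the opposite strand overlap *Il1a*, *Il1b*, *Il1r2*, *Il1rap* and *Il18*. *Il33* and *Il36g* overlap opposite-strand genes of the annotation that the matrices do not list.

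The promoters of the cytokine genes that were highest in myeloid cells (*Il1a*, *Il1b*) and in fibroblasts (*Il33*, with 2 annotated start sites) are shown, because these cytokine genes lead the comparisons that follow. Each run is the 250 bases upstream of a RefSeq start site in GRCm38.p6, 5′ to 3′ in the direction of the gene. Capitals mark matches to the TATA box TATAAA, the AP-1 site TGANTCA or the NF-κB site, all searched on both strands. The windows are chr2:129309973-129310222 (minus strand) for *Il1a*, chr2:129371140-129371389 (minus strand) for *Il1b*, and chr19:29924863-29925112 and chr19:29945540-29945789 (plus strand) for *Il33*.
Il1a: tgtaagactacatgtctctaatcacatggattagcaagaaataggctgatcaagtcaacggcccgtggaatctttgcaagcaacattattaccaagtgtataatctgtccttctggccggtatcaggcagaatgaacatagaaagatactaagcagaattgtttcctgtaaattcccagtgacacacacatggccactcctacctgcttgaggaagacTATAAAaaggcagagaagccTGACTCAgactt
Il1b: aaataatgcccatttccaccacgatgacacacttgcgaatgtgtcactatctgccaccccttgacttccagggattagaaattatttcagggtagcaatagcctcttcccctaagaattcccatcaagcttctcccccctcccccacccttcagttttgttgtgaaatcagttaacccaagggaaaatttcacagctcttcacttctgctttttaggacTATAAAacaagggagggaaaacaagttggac
Il33 start site 1: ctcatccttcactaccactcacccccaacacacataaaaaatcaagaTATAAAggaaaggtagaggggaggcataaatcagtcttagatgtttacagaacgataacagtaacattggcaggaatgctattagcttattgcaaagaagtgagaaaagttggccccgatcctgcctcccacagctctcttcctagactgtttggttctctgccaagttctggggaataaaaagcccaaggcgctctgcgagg
Il33 start site 2: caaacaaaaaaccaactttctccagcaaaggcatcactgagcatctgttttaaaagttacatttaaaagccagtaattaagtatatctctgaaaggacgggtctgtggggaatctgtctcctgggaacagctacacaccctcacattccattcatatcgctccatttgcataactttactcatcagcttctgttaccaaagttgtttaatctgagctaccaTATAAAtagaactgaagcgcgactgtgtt

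A TATA box stood 32 to 27 bases upstream of the *Il1a* start, 31 to 26 bases upstream of the *Il1b* start and 29 to 24 bases upstream of *Il33* start site 2. At *Il33* start site 1 it stood 203 to 198 bases upstream, and *Il18* held one 175 to 170 bases upstream on the opposite strand. The letters TATAAA occur in 12.4% of the 32851 windows of this length in the table. An AP-1 match stood 12 to 6 bases upstream of the *Il1a* start and 141 to 135 bases upstream of the first *Il1rn* start site, and 6.75% of all windows hold one. The NF-κB letters were found in 1 of the 15 windows of the 10 members, that of the second *Il1r1* start site, against 7.25% of all windows. A match describes the letters only.

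Over all cells, 9 of the 10 members were past 2-fold, all higher in AngII+HS, where 32.3% of all genes counted were past 2-fold in either direction and 20.8% were so upward. *Il1b* was at 37.4 CPM in Control and 1426 CPM in AngII+HS, a log2 ratio of 5.25. *Il1a* was at 3.17 and 144 CPM (5.51), *Il1rn* at 3.61 and 199.9 CPM (5.79), *Il1r2* at 4.10 and 103.9 CPM (4.66) and *Il36g* at 3.23 and 50.4 CPM (3.97). These 5 genes had most of their UMIs in myeloid cells in both libraries. *Il33* was at 38.5 and 199.9 CPM (2.38), *Il18* at 2.21 and 10.5 CPM (2.25), *Il1rl1* at 3.57 and 9.25 CPM (1.37) and *Il1rap* at 24.3 and 59.8 CPM (1.30). *Il1r1*, the signaling receptor for IL-1, was the only member within 2-fold, at 142 and 161 CPM (0.18), and its direction turned under some other settings, to -0.32 with equal weight for each cell. The median log2 ratio of the members was 3.17, against 0.06 for all genes counted.

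The shares of the cell types differed along with the levels within them, so each member's log2 ratio over all cells was recomputed with only one of them changed. With the AngII+HS cell types' UMI shares and the Control levels, the log2 ratio was 3.89 for *Il1b*, 3.57 for *Il1rn*, 3.18 for *Il1a*, 3.77 for *Il1r2* and 4.35 for *Il36g*. With the Control shares and the AngII+HS levels it was 2.17, 2.93, 2.60, 1.66 and 0.68 for the same genes. For *Il33* the values were 1.18 and 1.01, near each other, whereas for *Il1rap* (1.25 and -0.47), *Il18* (2.18 and 0.15) and *Il1rl1* (2.21 and -0.63) the shares gave the higher value. The second set includes the low level of myeloid transcripts in non-myeloid cells described next. It also includes differences between the libraries in the mix of sub-clusters within a cell type.

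B cells, lymphocytes that are not a main source of *Il1a*, *Il1b*, *Il1rn* or *Il36g*, served to gauge this low level. In AngII+HS B cells, *Il1b* was at 83.5 CPM (95% interval 71.8 to 96.5), with a UMI in 15.1% of 992 cells at a median of 1982 UMIs per cell. In Control B cells it was at 5.98 CPM, with a UMI in 2.02% of 99 cells at a median of 2997 UMIs. In most other non-myeloid AngII+HS types *Il1b* was in this range or somewhat lower, at 37.1 CPM in VSMCs, 62.3 in fibroblasts, 62.7 in VECs (vascular endothelial cells), 59.7 in LECs (lymphatic endothelial cells), 73.2 in pericytes, 74.4 in T cells and 86.4 in neural cells. Plasma cells stood above this, at 171 CPM. The ratio of *Il1b* to *Il1a* UMIs in B cells and in these types, plasma cells left out, lay between 5.67 (LECs, 9 *Il1a* UMIs) and 8.26 (VECs) in AngII+HS, against 9.88 over the whole library and 17.65 in plasma cells. *S100a8*, a neutrophil calcium-binding protein gene, was likewise at 90.4 CPM in AngII+HS B cells, 71.0 in fibroblasts, 70.8 in VECs and 45.3 in VSMCs, against 17.9, 3.17, 3.93 and 1.83 CPM in Control. In what follows, background means the B cell level. Levels of *Il1a*, *Il1b*, *Il1rn*, *Il1r2* and *Il36g* at or near it in non-myeloid types are read as background. For *Il1r2* this gauge is weaker, since its Control B cell level rests on 3 UMIs. Whether these levels are free RNA or expression was not tested. AngII+HS B cells were shallower than AngII+HS fibroblasts (median 5120.5 UMIs per cell) and VSMCs (9167). A CPM from shallower cells need not hold for deeper types.

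**Figure D1:**
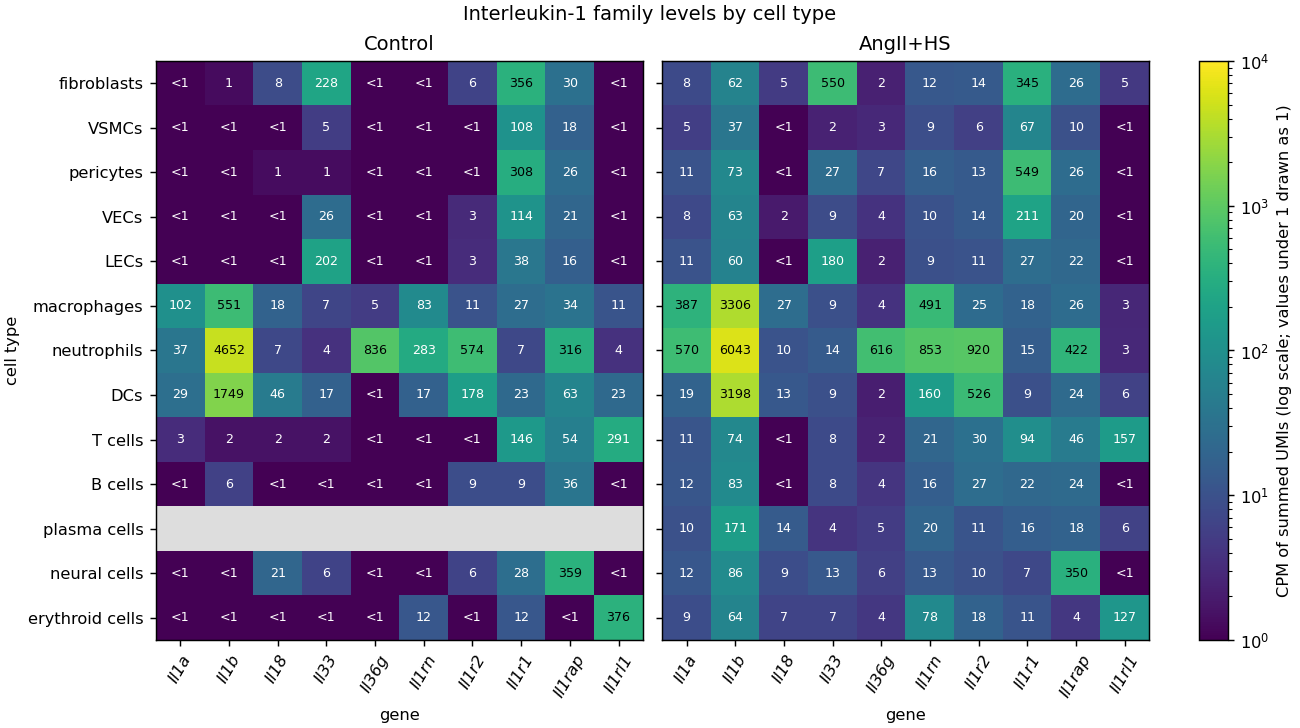
Level of each of the 10 members (columns) by cell type (rows) in the Control and AngII+HS libraries, as a heatmap of CPM of the summed UMIs on a log colour scale with the CPM written in each field, from 1 library per condition. Neutrophils lead for Il1b, Il1rn, Il1r2 and Il36g in both libraries, and fibroblasts lead for Il33 (228 and 549.6 CPM).

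Neutrophils, macrophages and DCs (dendritic cells) held the *Il1b* UMIs. Neutrophils had the highest level in both libraries, 4652 CPM (95% interval 4399 to 4916) in Control and 6043 CPM (5982 to 6105) in AngII+HS, a log2 ratio of 0.38. Macrophages were at 551 CPM (520.3 to 583) in Control and 3306 CPM (3281 to 3332) in AngII+HS, a log2 ratio of 2.59. DCs were at 1749 CPM (1558 to 1956) in 41 Control cells and 3198 CPM (3132 to 3266) in 533 AngII+HS cells, a log2 ratio of 0.87. None of the 3 pairs of intervals overlapped, and the ratio was largest in macrophages. Macrophages of the 2 libraries also differed in their mix of sub-clusters, given below. The part of this mix in the macrophage ratios was not tested. The share of macrophages with an *Il1b* UMI was 19.4% and 76.5%, and after each cell was thinned to 1000 UMIs it was 14.0% and 62.7%. In neutrophils 92.9% of cells had a UMI in both libraries. The B cell share of 15.1% in AngII+HS is the background to these values, 8.40% after thinning.

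The leading source of *Il1b* UMIs was neutrophils in Control, with 44.9%, and macrophages in AngII+HS, with 56.7%. Macrophages held 42.5% in Control, near the neutrophil share. Neutrophils held 32.7% and DCs 7.63% in AngII+HS.

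*Il1a*, whose product can signal without being cut, was at 101.5 CPM (88.5 to 116) in Control macrophages and 387 CPM (378 to 396) in AngII+HS macrophages, a log2 ratio of 1.93. In neutrophils it was at 36.8 CPM (17.7 to 67.7, 10 UMIs in 99 cells) and 569.6 CPM (551 to 589), a log2 ratio of 3.95 with an interval of 3.07 to 5.01. The leading type by level was thus macrophages in Control and neutrophils in AngII+HS. The share of neutrophils with an *Il1a* UMI was 6.06% and 31.4%, although neutrophils were shallower in AngII+HS (median 1266 against 2739 UMIs per cell), and in macrophages it was 19.8% and 40.3%. After thinning, the neutrophil shares were 2.06% and 29.2%. DCs, by contrast with *Il1b*, were low in *Il1a* at 28.7 and 18.6 CPM, close to the 11.9 CPM of AngII+HS B cells. In Control 92.1% of the *Il1a* UMIs came from macrophages, and in AngII+HS 65.5%.

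The balance of the IL-1 agonists within a cell type therefore differed between types. In neutrophils there were 126 *Il1b* UMIs per *Il1a* UMI in Control and 10.6 in AngII+HS. In macrophages the ratio was 5.43 and 8.55, and in DCs it was 61.0 and 172. Neutrophils were the only one of these 3 types in which the ratio was lower in AngII+HS.

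*Il18*, encoding an inflammasome-cut cytokine that induces interferon γ, was at most 45.9 CPM in any cell type. Macrophages were at 18.0 CPM (12.8 to 24.6) in Control and 27.3 CPM (25.02 to 29.68) in AngII+HS, a log2 ratio of 0.60, and fibroblasts at 8.49 and 4.93 CPM (-0.78). DCs were at 45.9 CPM in Control, from 8 UMIs, and 12.8 CPM in AngII+HS, from 35 UMIs. AngII+HS B cells were at 0.459 CPM, so this gene had little background. Of the Control UMIs of *Il18*, 83 of 166 came from fibroblasts, and of those in AngII+HS, 63.7% came from macrophages.

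*Il33* followed a different distribution. Fibroblasts led it in both libraries, at 228 CPM (219 to 238) in Control and 549.6 CPM (541 to 558) in AngII+HS, a log2 ratio of 1.27 (1.21 to 1.33), and they held 77.0% and 96.1% of its UMIs. The share of fibroblasts with a UMI was 36.2% and 56.3%. AngII+HS fibroblasts were the deeper ones (median 5120 against 3176 UMIs per cell), and after thinning the shares were 16.0% and 27.2%. LECs were at 201.5 and 180.4 CPM, a log2 ratio of -0.16. VECs were lower in AngII+HS, at 26.3 and 8.56 CPM (-1.62, interval -2.12 to -1.14), and so were VSMCs, at 5.24 and 2.38 CPM (-1.14). The directions in VECs and VSMCs each turned under 1 other setting, to 0.43 in VECs when doublets were kept and to 0.57 in VSMCs when the libraries were merged without integration. In the merged run, 4110 Control cells with VSMCs as best marker list stayed unnamed, leaving 1009 Control VSMCs. B cells of AngII+HS were at 7.80 CPM, close to its VECs. Pericytes were at 1.38 CPM (2 UMIs) and 26.8 CPM (30 UMIs), a log2 ratio of 4.28 with an interval of 2.30 to 7.39, which was -0.32 in cells thinned to 1000 UMIs.

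*Il36g*, the cytokine of the family best known from skin and mucosa, was nearly confined to neutrophils, the source of 93.4% of its UMIs in Control and 94.3% in AngII+HS. Its level there was 835.5 CPM (730.3 to 952) in Control and 615.6 CPM (596 to 635) in AngII+HS, a log2 ratio of -0.44, opposite in sign to *Il1a* and *Il1b* in the same cells. The share of neutrophils with a UMI was 76.8% and 36.9%, and 47.4% and 33.0% after thinning. Its level was at most 7.14 CPM in any other type of either library.

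**Figure D2:**
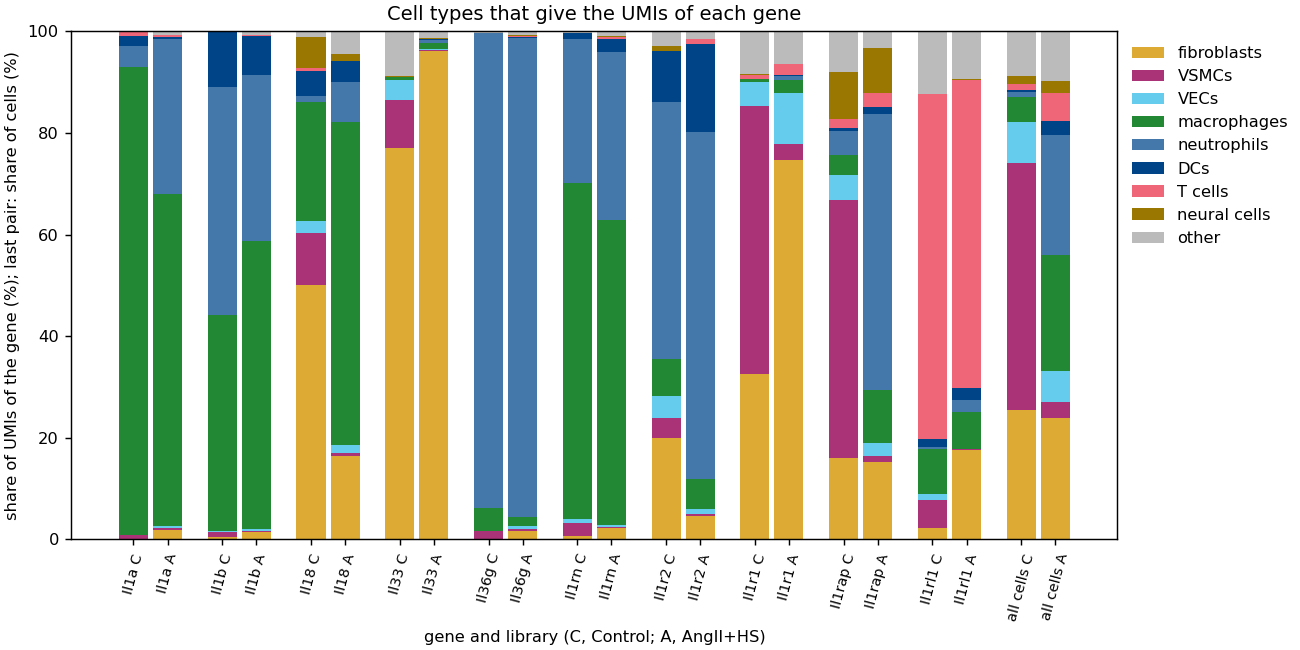
Percent of each member's UMIs that came from each cell type, in Control and AngII+HS (stacked bars, C for Control and A for AngII+HS), with the percent of cells of each type as the last pair of bars. The leading source in Control and in AngII+HS was neutrophils (44.9%) and macrophages (56.7%) for Il1b, VSMCs (52.8%) and fibroblasts (74.7%) for Il1r1, and VSMCs (50.7%) and neutrophils (54.4%) for Il1rap.

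*Il1rn*, the antagonist gene, was highest where *Il1b* was highest. Macrophages were at 83.0 CPM (71.3 to 96.1) and 491 CPM (482 to 501), a log2 ratio of 2.57, and neutrophils at 283 CPM (224 to 354) and 853 CPM (829.9 to 876), a log2 ratio of 1.59. DCs were at 17.2 CPM (3 UMIs) and 159.8 CPM (438 UMIs). The intervals of macrophages and neutrophils did not overlap between the libraries. The share of macrophages with a UMI was 12.2% and 53.7%, and in neutrophils it was 47.5% and 49.7%, or 19.6% and 44.4% after thinning. The background in AngII+HS B cells was 15.6 CPM and 3.43% of cells.

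The antagonist was then set against the agonists as *Il1rn* UMIs per UMI of *Il1a* and *Il1b* together. In macrophages this ratio was 0.127 (0.108 to 0.149) in Control and 0.133 (0.130 to 0.136) in AngII+HS, so the intervals overlapped although all 3 genes were higher in AngII+HS. In neutrophils it was 0.0604 (0.0474 to 0.0761) in Control and 0.129 (0.125 to 0.133) in AngII+HS, where it came close to the macrophage value. In DCs it was 0.00968 and 0.0497, below both other types in each library. A ratio of transcripts is not a ratio of proteins, since the agonist and antagonist genes may differ in translation and release.

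Within AngII+HS macrophages and neutrophils, *Il1rn* and *Il1a* were detected more often in cells with an *Il1b* UMI than in those without. In AngII+HS macrophages, *Il1rn* was detected in 61.7% of the cells with an *Il1b* UMI and 27.6% of those without, and *Il1a* in 47.5% and 17.1%. In AngII+HS neutrophils, *Il1rn* was detected in 50.9% of the cells with *Il1b* and 33.7% of those without, and *Il1a* in 32.9% and 12.1%. In Control, *Il1rn* was detected in 27.4% and 8.61% of macrophages with and without *Il1b*. In Control neutrophils, of which 92 of 99 had *Il1b*, the shares were 47.8% and 42.9%. AngII+HS cells with an *Il1b* UMI were deeper, at a median of 4270 against 3212 UMIs in macrophages and 1276 against 1114 in neutrophils. Sub-clusters pooled here also differ in these genes. The parts of depth and of sub-clusters in these shares were not tested.

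*Il1r2*, the decoy receptor gene, was highest in neutrophils, at 574 CPM (488 to 672) in Control and 919.8 CPM (896 to 944) in AngII+HS, a log2 ratio of 0.68. DCs came next, at 178 CPM (121 to 252) and 526 CPM (499.6 to 554), with a log2 ratio of 1.57 between the libraries. The share of DCs with a UMI was 24.4% and 64.0%, or 13.8% and 31.3% after thinning, and that of neutrophils was 72.7% and 61.8%, or 42.3% and 54.0% after thinning. In AngII+HS DCs, 69.2% of the cells with *Il1b* and 34.2% of those without had an *Il1r2* UMI, at medians of 5209 and 4162 UMIs per cell. In AngII+HS neutrophils the shares were close, at 61.7% and 62.95%. Macrophages, at 10.6 and 24.9 CPM, stood at the B cell levels of 8.97 and 27.1 CPM when all macrophages were pooled, but 167 monocyte-like AngII+HS cells were at 64.9 CPM and an 803-cell AngII+HS sub-cluster led by *Ly6c2* and *Irf7* at 50.8 CPM, above that level. Neutrophils held 68.3% and DCs 17.2% of the AngII+HS UMIs of this gene.

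*Il1r1*, the signaling receptor gene, was mainly a gene of stromal and endothelial cells. Fibroblasts were at 356 CPM (344 to 368) and 345 CPM (338 to 352), a log2 ratio of -0.04. VSMCs were lower in AngII+HS, at 107.7 and 66.5 CPM (-0.70), whereas pericytes were higher, at 308 CPM (280.1 to 338) and 549 CPM (506 to 594), a log2 ratio of 0.83. VECs as a whole were also higher, at 114.5 CPM (105 to 125) and 211 CPM, a log2 ratio of 0.88 (0.73 to 1.04). VECs of the libraries also differed in their mix of sub-clusters, given below, and the part of this mix in the ratio was not tested. Macrophages as a whole were at 27.2 and 17.9 CPM, around the 8.97 (3 UMIs) and 22.5 CPM of B cells. Monocyte-like cells stood above that level, at 60.85 CPM (37.2 to 94.0) in 41 Control cells and 47.3 CPM (33.0 to 65.8) in 167 AngII+HS cells. With 48.7% of Control cells being VSMCs, that type held 52.8% of the Control UMIs of *Il1r1*, while fibroblasts held 74.7% in AngII+HS. T cells as a whole were at 146.5 and 93.5 CPM (-0.65).

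The decoy and signaling receptor transcripts were thus highest in different cell types, and cells with both were not counted. Monocyte-like cells as a group had both, with *Il1r1* at 60.85 and 47.3 CPM and *Il1r2* at 48.7 and 64.9 CPM. Fibroblasts also held 20.1% of the Control *Il1r2* UMIs. There were 78.0 *Il1r2* UMIs per *Il1r1* UMI in Control neutrophils and 60.2 in AngII+HS neutrophils, but 0.0178 and 0.0394 in fibroblasts and 0.0262 and 0.0650 in VECs. The Control neutrophil ratio rests on 2 *Il1r1* UMIs. In DCs the ratio was 7.75 and 55.5. Over all cells it was 0.0289 in Control and 0.644 in AngII+HS.

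*Il1rap*, the accessory protein gene shared by the IL-1, IL-33 and IL-36 receptors, had its highest levels in neural cells, at 359 CPM (307 to 417) and 349.5 CPM (317 to 384), and in neutrophils, at 316.5 and 421.6 CPM (0.41). Neural cells thus did not differ between the libraries beyond the counting intervals. It was lower in stromal and endothelial cells, at 30.1 and 26.0 CPM in fibroblasts, 25.6 and 25.9 CPM in pericytes, 20.6 and 19.9 CPM in VECs and 17.7 and 9.70 CPM in VSMCs (-0.87). B cells were at 35.9 and 23.9 CPM, levels like those of fibroblasts and VECs. A long noncoding RNA gene on the opposite strand, *Gm20319*, overlaps *Il1rap* over 93192 bases.

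*Il1rl1*, the IL-33 receptor gene, was highest in T cells among types of more than 50 cells per library, at 291 CPM (251 to 337) and 157 CPM (143 to 172), a log2 ratio of -0.89. Within the T cell cluster, the UMIs were concentrated in cells with markers of group 2 innate lymphoid cells (ILC2-like), 16 Control and 42 AngII+HS cells, at 2597 and 2419 CPM. The erythroid-named cluster of 38 and 104 cells was at 376 CPM (31 UMIs) and 127 CPM (57 UMIs). Macrophages were at 11.1 and 2.74 CPM, a log2 ratio of -2.01 (-2.73 to -1.25), and fibroblasts at 0.613 and 4.65 CPM, a log2 ratio of 2.92 (1.76 to 4.40). B cells were at 0 and 0.459 CPM, so the background for this gene was low. In AngII+HS T cells, *Il1rap* was detected in 9.68% of the cells with *Il1rl1* and 9.38% of those without.

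**Figure D3:**
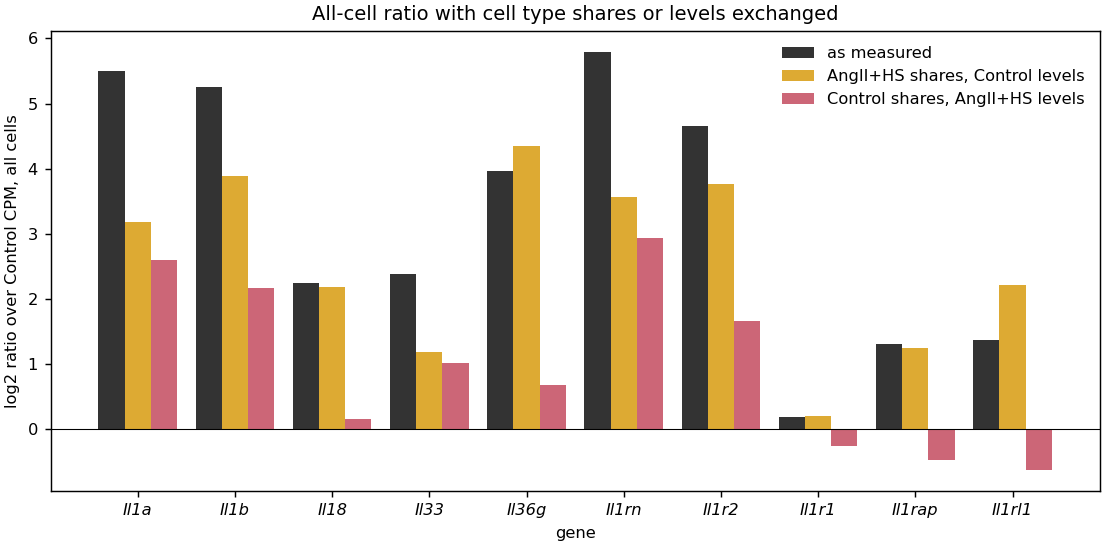
Log2 ratio (AngII+HS over Control) of each member over all cells, beside the ratio with only the cell types' shares changed and the ratio with only the levels within types changed. Shares alone give the higher value for Il1b (3.89 against 2.17) and Il36g (4.35 against 0.68), and both give near values for Il33 (1.18 and 1.01).

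In cell types taken one at a time, the members were past 2-fold in the following numbers. In macrophages, where 28.3% of all genes counted were past 2-fold, 5 of 10 members were, with *Il1a*, *Il1b*, *Il1rn* and *Il1r2* higher and *Il1rl1* lower, and *Il1r2* stood at the B cell levels in both libraries. In neutrophils, where 37.2% of all genes were, 4 of the 9 members counted were, all higher: *Il1a* and *Il1rn*, together with *Il1r1* (2 and 95 UMIs) and *Il33* (1 and 87 UMIs), whose intervals include no difference. In fibroblasts, where 16.1% of all genes were past 2-fold, 7 of 10 members were, all higher, but only *Il33* and *Il1rl1* among them stood above the B cell level. In VECs, where 14.2% of all genes were, 6 of the 8 members counted were, 5 higher and 1, *Il33*, lower. The 5 are those read as background at the level of all VECs, although 1 sub-cluster given below stood above it. In VSMCs, where 17.9% of all genes were, 7 of the 9 members counted were, 6 higher and 1, *Il33*, lower. The 6 are the same 5 genes and *Il18* (17 and 5 UMIs), whose interval includes no difference. *Il1r2* in fibroblasts, at 6.34 and 13.6 CPM, was below the B cell levels of 8.97 (3 UMIs) and 27.1 CPM. Of *Il1r2* and *Il1b*, Control fibroblasts held 62 and 13 UMIs and Control VECs 13 and 3, against 309 and 2813 in the whole Control library. The part of background in *Il1r2* in these types was not tested. In cells thinned to 1000 UMIs the VSMC count was 0. VSMCs had medians of 9995 and 9167 UMIs per cell, so thinning removes most UMIs of each member. Members can then fall below the UMI minimum and no longer be counted, so this 0 does not show that the differences vanished. With the B cell level of each library subtracted, the number was 3 in fibroblasts (*Il33*, *Il1rl1* and *Il1rap*, whose Control level was below that of B cells), 2 in neutrophils (*Il1a* and *Il1rn*) and 1 in VECs (*Il33*). In macrophages it was 8, with *Il1r1*, *Il33* and *Il36g*, which lie near the B cell level, added as lower and *Il1r2* turned to lower. The shares of all genes given here are those of the main setting. The counts after thinning or subtraction therefore have no share of all genes beside them. The median log2 ratio of the members was 0.52 in macrophages, 0.68 in neutrophils and 1.19 in fibroblasts, against -0.11, -0.04 and -0.14 for all genes counted in these types. Of the 10 fibroblast members, 2 had no Control UMI, and with them at their bound of 3 counts the fibroblast median was 2.10.

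**Figure D4:**
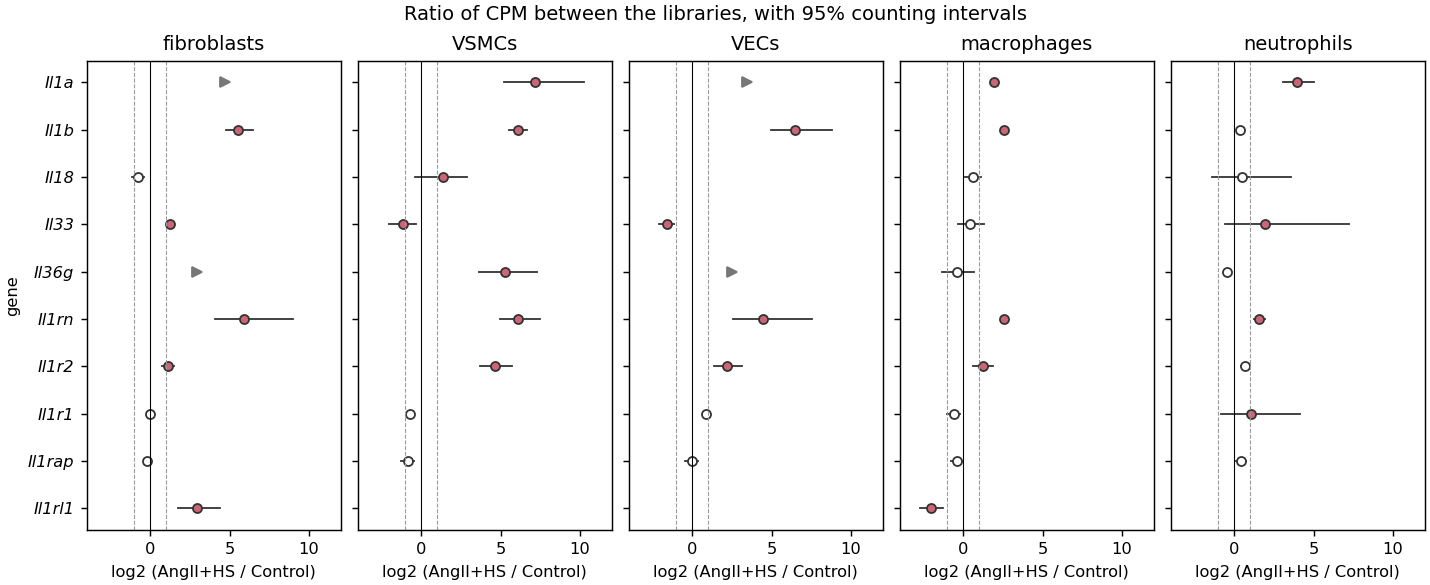
Log2 ratio (AngII+HS over Control) of each member in fibroblasts, macrophages, neutrophils, VECs and VSMCs with counting-error 95% intervals (filled points are past 2-fold, triangles are lower bounds where Control had no UMI), and dashed lines at 2-fold. Il1b stands at 2.59 in macrophages and 0.38 in neutrophils, and Il33 at 1.27 in fibroblasts and -1.62 in VECs.

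Sub-clusters were compared to see which cells within a type carried the members. Macrophages of the AngII+HS library fell into several sub-clusters, and the 1881 AngII+HS cells of the *Arg1*-high one (arginase 1, a marker of wound-type macrophages) had *Il1b* at 4754 CPM, *Il1a* at 747 CPM and *Il1rn* at 457 CPM. A sub-cluster of 803 AngII+HS cells led by interferon-response genes and *Ly6c2* had *Il1rn* at 932 CPM, the highest antagonist level among macrophage sub-clusters with more than 50 cells, and *Il1b* at 4039 CPM. The resident-like macrophages, 397 Control and 1038 AngII+HS cells, had *Il1b* at 138.7 and 1304 CPM and *Il1rn* at 67.7 and 423 CPM, but *Il1a* at 110.5 and 133 CPM. In these resident-like cells, *Il1a* was therefore much nearer between libraries than *Il1b*. The *Arg1*-high sub-cluster held no Control cell, whereas 397 of the 490 Control macrophages were resident-like. Macrophage ratios between the libraries therefore compare different mixes of sub-clusters. Monocyte-like cells, 41 in Control and 167 in AngII+HS, had *Il1b* at 2586 and 6173 CPM and *Il1a* at 100.4 and 299 CPM. A sub-cluster of 483 AngII+HS cells led by *Gpnmb*, *Mmp12* and *Trem2* was lower, with *Il1b* at 1073 CPM and *Il1a* at 231 CPM.

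All 99 Control neutrophils fell into 1 sub-cluster, led by the granule genes *Ngp* and *Mmp8* and by *Ly6g*, which held only 2 AngII+HS cells. In this sub-clustering, Control and AngII+HS neutrophils were thus compared across different sub-clusters. In the clustering of all cells at resolution 1.2, 97 Control neutrophils shared a cluster with 1442 AngII+HS neutrophils. Merged without integration, 78 Control neutrophils shared one with 12 AngII+HS cells and 21 shared one with 4412. Among AngII+HS neutrophils, 2208 cells were high in *Retnlg*, a gene of blood neutrophils, and 2264 cells belonged to sub-clusters led by *Tnf*, *Icam1* and *Il23a* or by interferon-response genes. The *Retnlg*-high cells had *Il1a* at 335 CPM and the others at 811.5 CPM. *Il1b* was at 5489 and 6777 CPM and *Il1rn* at 655 and 1055 CPM in the same order. *Il36g* ran the other way, at 709.8 and 540.0 CPM, as did *Il1rap*, at 480.0 and 368 CPM, while *Il1r2* was at 914 and 910.0 CPM. The second group is not uniform, since its 267 cells led by interferon-response genes had *Il1rap* at 505 CPM and *Il1r2* at 1271 CPM, against 348 and 858 CPM in its other 1997 cells.

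Among fibroblasts, adventitial-like cells had *Il33* at 303 CPM in Control and 722 CPM in AngII+HS, and cells with markers of matrix activation had 182 and 702 CPM. The latter class pools 3 sub-clusters, and in the one that held 233 of its 234 Control cells *Il33* was at 183 and 527.5 CPM. The receptor gene *Il1r1* was at 477 and 487 CPM in adventitial-like cells and at 274 and 339.9 CPM in the pooled matrix-activated ones. Another sub-cluster of the matrix-activated class, led by *Mmp13*, *Saa3* and *Lcn2*, with 391 AngII+HS cells and 1 Control cell, had *Il33* at 908.6 CPM and *Il1rl1* at 17.8 CPM (80 UMIs), and it held 80 of the 131 *Il1rl1* UMIs of AngII+HS fibroblasts. *Il33* was lower in AngII+HS in 2 unnamed sub-clusters of the fibroblasts. In one, of 299 and 316 cells, it was at 179 and 96.7 CPM. The other, at 153 and 55.7 CPM, was led by *Rgs5*, *Tagln* and *Notch3*, which are markers of mural cells and go against a fibroblast name. A sub-cluster of 156 AngII+HS cells led by neutrophil genes had *Il1b* at 645 CPM. Without it, 6 fibroblast members were past 2-fold, with no share of all genes given for that setting.

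**Figure D5:**
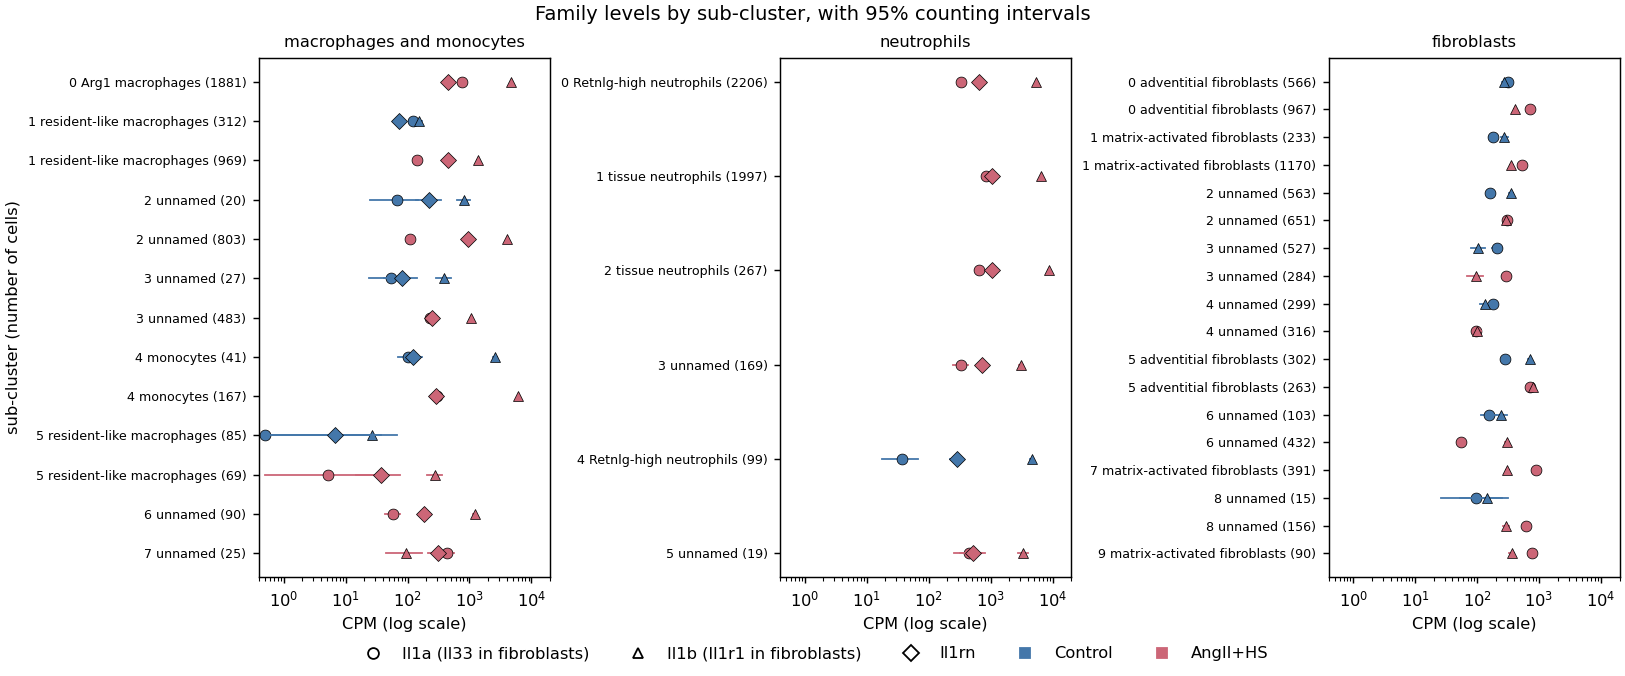
Levels (CPM on a log axis, exact Poisson 95% intervals) of Il1a, Il1b and Il1rn by sub-cluster of macrophages and of neutrophils, and of Il33 and Il1r1 by sub-cluster of fibroblasts, for sub-clusters with at least 15 cells in a library (number of cells in brackets). The Arg1-high macrophages stand at 4754 CPM for Il1b, and the 99 Control neutrophils are in 1 sub-cluster.

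In VECs, *Il1r1* was highest in cells with venous markers. Venous-like VECs, 168 in Control and 346 in AngII+HS, were at 332.5 and 478 CPM, whereas arterial-like VECs were at 63.3 and 56.4 CPM and capillary-like VECs at 24.7 and 33.3 CPM. The same venous-like cells had *Il33* at 117 and 12.7 CPM. This class pools 2 sub-clusters. *Il33* was at 98.8 and 6.87 CPM in the one of 101 and 257 cells. In the one of 67 and 89 cells it was at 159 and 63.1 CPM. VECs as a whole were 838 cells in Control and 1203 in AngII+HS. VEC ratios between the libraries therefore compare different mixes of sub-clusters. An arterial-like sub-cluster of 125 AngII+HS cells had *Il1b* at 125 CPM (104 to 149) and *Il36g* at 17.4 CPM. AngII+HS B cells were at 83.5 and 4.13 CPM, and the part of background in this sub-cluster was not tested. In T cells, *Il1r1* was highest in γδ T-like cells, 21 in Control and 142 in AngII+HS, at 1024 and 659 CPM. Regulatory T-like cells, 74 in AngII+HS and 1 in Control, had *Il1rl1* at 689 CPM and *Il1r2* at 207 CPM in AngII+HS. They also had *Il1rn* at 90.4 CPM (21 UMIs), against 15.6 CPM in AngII+HS B cells.

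The rest of the pathway was described by 4 lists: other family receptors and binding proteins, genes that process and release IL-1, genes of the signaling chain, and genes known to respond to IL-1. In macrophages, 28.3% of all genes were past 2-fold and 11.1% were so upward. There 3 of 14 processing genes were past 2-fold, all higher, a share below the first of these and above the second. The inflammasome adaptor gene *Pycard* was at 62.7 and 166 CPM, whereas the sensor gene *Nlrp3* was at 900.1 and 844 CPM. The other 2 that were higher, *Elane* and *Ctsg*, encode neutrophil granule proteases and were at 1.38 and 7.57 CPM and at 0.922 and 7.67 CPM. Of 14 signaling genes, 1 was past 2-fold and higher, below both shares, the inhibitor gene *Nfkbia* (1533 and 3211 CPM). Of 14 response genes, 3 were higher and 2 lower, with *Ptgs2*, the inducible cyclooxygenase gene, at 365 and 1548 CPM and *Ccl2*, a monocyte chemokine gene, at 3156 and 3140 CPM. The 3 include *Mmp3* (4 and 664 UMIs), which was at 2471 CPM in AngII+HS fibroblasts, and the part of background in it was not tested. The IL-18 binding protein gene *Il18bp* was at 2.77 and 24.1 CPM.

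In neutrophils, where 37.2% of all genes were past 2-fold and 17.4% were so upward, 6 of 12 processing genes were higher and 2 lower. As above, the floor for genes with no Control UMI enters both shares. Among the 6, *Nlrc4* rests on 2 Control UMIs and its interval includes no difference. *Nlrp3* was at 593 and 2191 CPM and *Ninj1*, needed for membrane rupture, at 254 and 656 CPM, while *Casp1* was at 29.4 and 6.76 CPM and the pore gene *Gsdme* at 166 and 36.4 CPM. Of 14 signaling genes, 4 were counted as higher and 1 as lower. Among the 4, *Tab1* had no Control UMI and 20 UMIs in AngII+HS, too few to show a direction, and the interval of *Traf6* includes no difference. Of 14 response genes, 9 were higher and 1 lower. The 9 include genes with few Control UMIs, such as *Mmp3* (1 and 440 UMIs), which was at 2471 CPM in AngII+HS fibroblasts. The part of background in them was not tested. *Nfkbia* was at 3710 and 11900 CPM and *Tnfaip3*, another inhibitor of NF-κB, at 556 and 1513 CPM, while the granule gene *Lcn2* was at 3581 and 1303 CPM. This contrast, like that of the members, is between different sub-clusters in the sub-clustering used.

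In fibroblasts, none of the 14 signaling genes was higher and 1 was lower, *Irak3*, an inhibitor of the receptor complex (148 and 60.2 CPM). Of 15 response genes, 7 were higher and none lower, where 16.1% of all genes were past 2-fold and 7.82% were so upward. *Lcn2*, a neutrophil granule gene, is among the 7. In AngII+HS it was at 80.6 CPM in fibroblasts, 23.8 in VECs and 10.6 in VSMCs, and it was a leading gene of 1 fibroblast sub-cluster. The part of background in it was not tested. The acute-phase gene *Saa3* was at 3.07 and 951 CPM, the collagenase gene *Mmp13* at 0.205 and 95.3 CPM and the stromelysin gene *Mmp3* at 1024 and 2471 CPM. *Cxcl1* (2136 and 2804 CPM) and *Ccl2* (1614 and 2185 CPM) were within 2-fold. The median log2 ratio of the response genes was 0.41, against -0.14 for all genes counted.

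In VECs, none of the 14 signaling genes was past 2-fold, while 6 of 13 response genes were higher and 1 lower. *Ccl2* was at 22.4 and 215 CPM, *Ptgs2* was lower at 536 and 213 CPM, and the leukocyte adhesion gene *Icam1* was within 2-fold at 1302 and 967 CPM. In VSMCs, *Nfkbia* was at 1566 and 698.5 CPM and the adaptor gene *Myd88* at 29.4 and 14.0 CPM, both lower. Over the 4 lists, 10 of 41 genes counted in VECs were higher and 1 lower, and 9 of 37 in VSMCs were higher and 3 lower, where 14.2% and 17.9% of all genes were past 2-fold in either direction. The counts include genes at low levels in AngII+HS, such as *Nlrp3* (20.8 CPM in VECs and 16.0 in VSMCs) and *Saa3* (15.4 and 10.2 CPM), and the part of background in them was not tested.

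The genes whose levels ran most like each member's were named by Pearson correlation of log2(CPM + 1) over 23 profiles of a cell type in a library, among 14610 genes with at least 200 UMIs, as a description, since profiles of 1 library share its depth and background. *Il1b* was most like *Wfdc17* (r = 0.962) and *Clec4e*, *Il1a* most like *Chil3* (0.978), *Ccl3* and *Cxcl3*, and *Il1rn* most like *Clec4e* (0.978) and *Clec4d*. *Il36g* was most like *Hcar2* (0.973) and *Trem3*, *Il1r2* most like *Ifitm1* (0.911), *Il33* most like *Lbp* (0.889) and *Il1r1* most like *Sgip1* (0.884). *Il1rl1* was most like *Lat* (0.905), a T cell signaling adaptor gene, with the IL-18 receptor gene *Il18r1* next (0.843). *Il1rap* was most like *Gm20319* (0.856), the gene that overlaps it, and *Il18* was most like *Gas2l3* (0.821).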

How the data were processed

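Single-cell RNA-seq counts of 1 Control and 1 AngII+HS library were used. The authors deposited raw UMI counts per gene and cell barcode, made with Cell Ranger (8.0.1 in the file header, and another version in the study's methods), and the submitters' processing notes name mm10 while the methods name GRCm39. No normalization had been applied to the deposited counts.

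Barcodes needed 500 or more UMIs and 200 or more genes, with less than 20% of UMIs from mitochondrial genes. Doublets were scored with Scrublet (scanpy 1.11.5) in each library, and a share of 0.8% per 1000 cells was removed. Cells were integrated and clustered with Seurat 5.3.0 (2000 variable genes, 30 components, resolution 0.8) with 19 family genes left out. A cluster was named from its best-scoring marker list where at least 3 of those markers were detected, and otherwise stayed unnamed. It also stayed unnamed where that score was not above 0 or where its leading genes were markers of another type. The same held for shallow clusters with no marker of their own among the leading genes. UMIs were summed per type and library, giving CPM with exact Poisson intervals and shares with exact binomial ones (95%). With 1 library per group no test was run. A gene with no UMI in 1 library got a bound from a floor of 3 counts. For thinned shares, cells were reduced to 1000 UMIs, which leaves out shallower cells (9606 and 18184 cells remained). Only the ratios and their intervals were tested on simulated counts, for macrophages. Free RNA was neither removed nor measured, and the level in B cells was used in its place.

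All 10 members are named in the text. From each list, the text could name in a cell type the 3 genes with most UMIs and the 2 with the largest and the 2 with the smallest ratio, and for each member the 3 genes most like it. Outside this rule, *Nlrc4* and *Traf6* in neutrophils and *Lcn2* in fibroblasts and VECs were named to give limits of the counts. Genes that mark a sub-cluster, and *S100a8*, were named after their values were seen. The members and lists were chosen with earlier results of these data known. Alternatives covered filters, doublets, resolution, integration, scaling, weighting, thinning, background subtraction and the UMI minimum.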

Additional observations from a re-analysis of the deposited data

Results flagged for a closer look

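*Il33* differed in direction between cell types under the same contrast. Its log2 ratio (AngII+HS over Control) was 1.27 in fibroblasts and 4.28 in pericytes, but -1.14 in VSMCs and -1.62 in VECs. *Il1rl1* likewise had a log2 ratio of 2.92 in fibroblasts and -2.01 in macrophages. These differences between cell types were not tested, since each condition was 1 library. The pericyte value rests on 2 Control UMIs, and it was -0.32 after thinning. The values in VECs and VSMCs turned to 0.43 with doublets kept and to 0.57 without integration, respectively. Of the 131 *Il1rl1* UMIs in AngII+HS fibroblasts, 80 came from 1 sub-cluster.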

How the results depend on the processing

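With 1 library per condition, each interval covers counting error alone, and no value has a replicate check. No paired analysis was possible because each condition has only 1 library. Of the counts of members past 2-fold or sharing a leading type, 93 under the alternatives stayed within 1.5 times the value reported, 10 were smaller and 1 was larger. With the B cell CPM subtracted, the number of members past 2-fold was 3 in fibroblasts, 2 in neutrophils, 1 in VECs and 8 in macrophages. In cells thinned to 1000 UMIs it was 4 in fibroblasts, 2 in VECs and 0 in VSMCs, but members can fall below the UMI minimum after thinning. With a minimum of 100 UMIs it was 2 in each of neutrophils, VECs and VSMCs, where fewer members are counted. Merged without integration it was 4 in VSMCs. That run named 1009 Control cells as VSMCs, since a further 4110 with VSMCs as best marker list stayed unnamed. The Control B cell level rests on 99 cells. B cells were also shallower than most types, for which the subtracted CPM can be too large. Of the single values, 931 were close to those reported, 202 moved and 16 reversed. The 16 were all past 2-fold as reported. Values reported within 2-fold also changed sign under some settings and are not among the 16. Examples are *Il33* in macrophages (0.43, down to -2.16), *Il36g* in macrophages (-0.41, up to 1.61) and *Il1r1* over all cells (0.18, down to -0.32). With the B cell CPM subtracted, the log2 ratio was -0.94 for *Il1rn* in fibroblasts, -3.43 for *Il1r2* in macrophages, -1.15 for *Il1b* in neural cells and, in T cells, -1.61 for *Il1a*, -0.94 for *Il1r2* and -3.00 for *Il33*. In thinned cells it was -0.0847 for *Il36g* in fibroblasts and -0.0820 for it in VECs, -0.60 for *Il1r1* and -1.24 for *Il33* in neutrophils, -0.53 for *Il1rn* and -1.45 for *Il33* in T cells and -0.32 for *Il33* in pericytes. Merged without integration it was 0.57 for *Il33* in VSMCs and 0.29 for *Il1r1* in DCs, and with doublets kept 0.43 for *Il33* in VECs. The cause of these reversals was not tested. The main myeloid and fibroblast values kept their direction, with log2 ratios of 2.53 to 3.22 for *Il1b*, 1.89 to 2.24 for *Il1a* and 2.46 to 2.89 for *Il1rn* in macrophages, 3.92 to 4.77 for *Il1a* and 0.22 to 0.45 for *Il1b* in neutrophils, and 1.07 to 1.48 for *Il33* in fibroblasts. That of *Il1r1* was 0.80 to 0.95 in VECs and 0.18 to 0.84 in pericytes. Leaving out the fibroblast sub-cluster led by neutrophil genes, an alternative chosen after seeing the data, gave 6 fibroblast members past 2-fold. Shares of all genes past 2-fold were given for the main setting only. The counts of members under the alternatives therefore cannot be read against such a share.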

Other observations

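A few values of small clusters belong to no comparison above. Plasma cells, found in AngII+HS with 165 cells and in Control with none, had *Il1b* at 171 CPM and *Il18* at 14.2 CPM. The AngII+HS cells of the erythroid-named cluster had *Il1rn* at 77.8 CPM, 1.06 *Il1rn* UMIs per UMI of *Il1a* and *Il1b* together (95% interval 0.640 to 1.76). A macrophage sub-cluster of 25 AngII+HS cells, led by *Marco* and *Cd209b*, had *Il33* at 252 CPM (27 UMIs), *Il18* at 187 CPM (20 UMIs) and *Il1a* at 429.9 CPM, but *Il1b* at 93.5 CPM.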
